A study of Homo sapiens with 22 samples.

Results

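Erythroid cells switch from fetal to adult hemoglobin under a small set of DNA- and RNA-binding regulators, and the RNA levels of 10 of them were followed here in HUDEP-2 cells that lacked histone H2A.X or the kinase BAZ1B. The genes were chosen by symbol, with a rule that used no measured value: KLF1, BCL11A, ZBTB7A, MYB, SOX6, NFIA, NFIX, HIC2, KLF3 and LIN28B. All 10 were present among the 59087 gene names of each of the 2 count tables, and all 10 passed the filter on low counts in both experiments. HUDEP-2 is an immortalized human erythroid progenitor line from umbilical cord blood that expresses mainly adult globin. RNA-Seq was performed on WT and KO cells at D0, in expansion culture with SCF, EPO, dexamethasone and doxycycline, and at D6 of maturation culture. Each day was sampled in 2 WT and 3 H2A.X KO libraries of the H2A.X experiment and in 3 WT and 3 BAZ1B KO libraries of the BAZ1B experiment, 22 libraries in all. The KO lines were subclones grown by limiting dilution after delivery of paired CRISPR/Cas9 guides by lentivirus, so that each KO library came from 1 clone and p-values measured the spread between subclones of a single line.

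The regulators act in layers. KLF1 is the zinc finger activator that binds CACCC boxes of the β-globin promoter and of many red cell genes, and it also drives BCL11A and ZBTB7A, the DNA-binding repressors that silence the γ-globin genes together with the NuRD complex. SOX6 works beside BCL11A on the β-globin locus, KLF3 is a repressor that competes for the same kind of CACCC sites, and MYB sustains progenitor growth and lies upstream of KLF1. NFIA and NFIX are nuclear factor I proteins of adult erythropoiesis. On the fetal side stand LIN28B, an RNA-binding protein that blocks maturation of let-7 miRNAs, and HIC2, a let-7 target that represses BCL11A.

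Total counts per library were 11910141 to 21013004 in the H2A.X experiment and 33199408 to 41273244 in the BAZ1B experiment, and the 2 experiments were normalized apart, so that levels were not tested between them. All 9 erythroid markers, such as HBA1 and ALAS2, were detected in every group, while the summed level of 5 myeloid markers never exceeded 6.33 CPM, that of 4 lymphoid markers 0.52 CPM and that of 3 stem and progenitor markers 0.61 CPM. H2AFX, the H2A.X gene, fell in H2A.X KO cells at D0 (-1.50 on the log2 scale with an SE of 0.46, adjusted p = 0.0304) and at D6 (-1.52 on the log2 scale with an SE of 0.46, adjusted p = 0.0233), and where the trend of each library on length and GC content of the transcripts was removed (below, the length and GC correction) the values were -0.67 (adjusted p = 0.275) and -0.35 (adjusted p = 0.568). BAZ1B RNA was reduced but not lost in BAZ1B KO cells, at D0 (-0.40 on the log2 scale with an SE of 0.067, adjusted p = 0.00415) and at D6 (-0.38 on the log2 scale with an SE of 0.067, adjusted p = 0.0025). The guides flanked the whole H2A.X coding sequence, but for BAZ1B only the stretch from the start codon to the end of the first exon. The paper describes homozygous deletions found by PCR and sequencing, and reports that H2A.X phosphorylation marks were eliminated in the H2A.X KO lines. In the H2A.X experiment the KO against WT differences of all genes followed transcript length, with a Spearman correlation across 12017 genes of 0.544 at D0 and 0.601 at D6, against -0.0301 and 0.0524 in the BAZ1B experiment. Values with this correction are given beside each H2A.X KO against WT difference whose call it changed or that passed and moved by over 1.5 times. The column headers of 5 of the 6 H2A.X KO libraries, and of none of the 4 WT libraries of that experiment, carry the word Redo. What was redone is not stated in the sources used here, and it cannot be told apart from the genotype there. H2A.X KO replicate 3 at D6 was the KO library without it. RNA from bulk cultures was measured, in which fewer cells of a type and less RNA per cell cannot be told apart.

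Relative to transcript size, KLF1 was the most abundant of the 10 regulators in every group. Its mean level in RPKM (reads per kilobase of exon and library size) ran from 257 in H2A.X KO cells at D0 to 651 in WT cells of the same experiment at D6, with no overlap with the next gene in any group. MYB followed at D0, at 65.9 RPKM in WT cells of the BAZ1B experiment, ahead of NFIX (27.7 RPKM), KLF3 (17.6 RPKM) and ZBTB7A (15.3 RPKM). By D6 of the same WT cells KLF3 (45.6 RPKM) and NFIX (37.7 RPKM) had passed MYB (27.2 RPKM). LIN28B, HIC2, NFIA, BCL11A and SOX6 filled the lower ranks, with means at or under 8.14 RPKM. In WT cells of the BAZ1B experiment at D6, NFIA (2.87 RPKM), LIN28B (2.80 RPKM) and BCL11A (2.57 RPKM) followed each other with overlapping replicates, and SOX6 lay above NFIA without overlap. NFIA and BCL11A have long annotated exons, and the rank of both rose in all 8 groups where the length of the canonical transcript was used instead (NFIA from rank 8 to rank 6 in the same group). SOX6 went from rank 7 to rank 9 in that group, and KLF1 kept rank 1 in all 8.

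**Figure D1:**
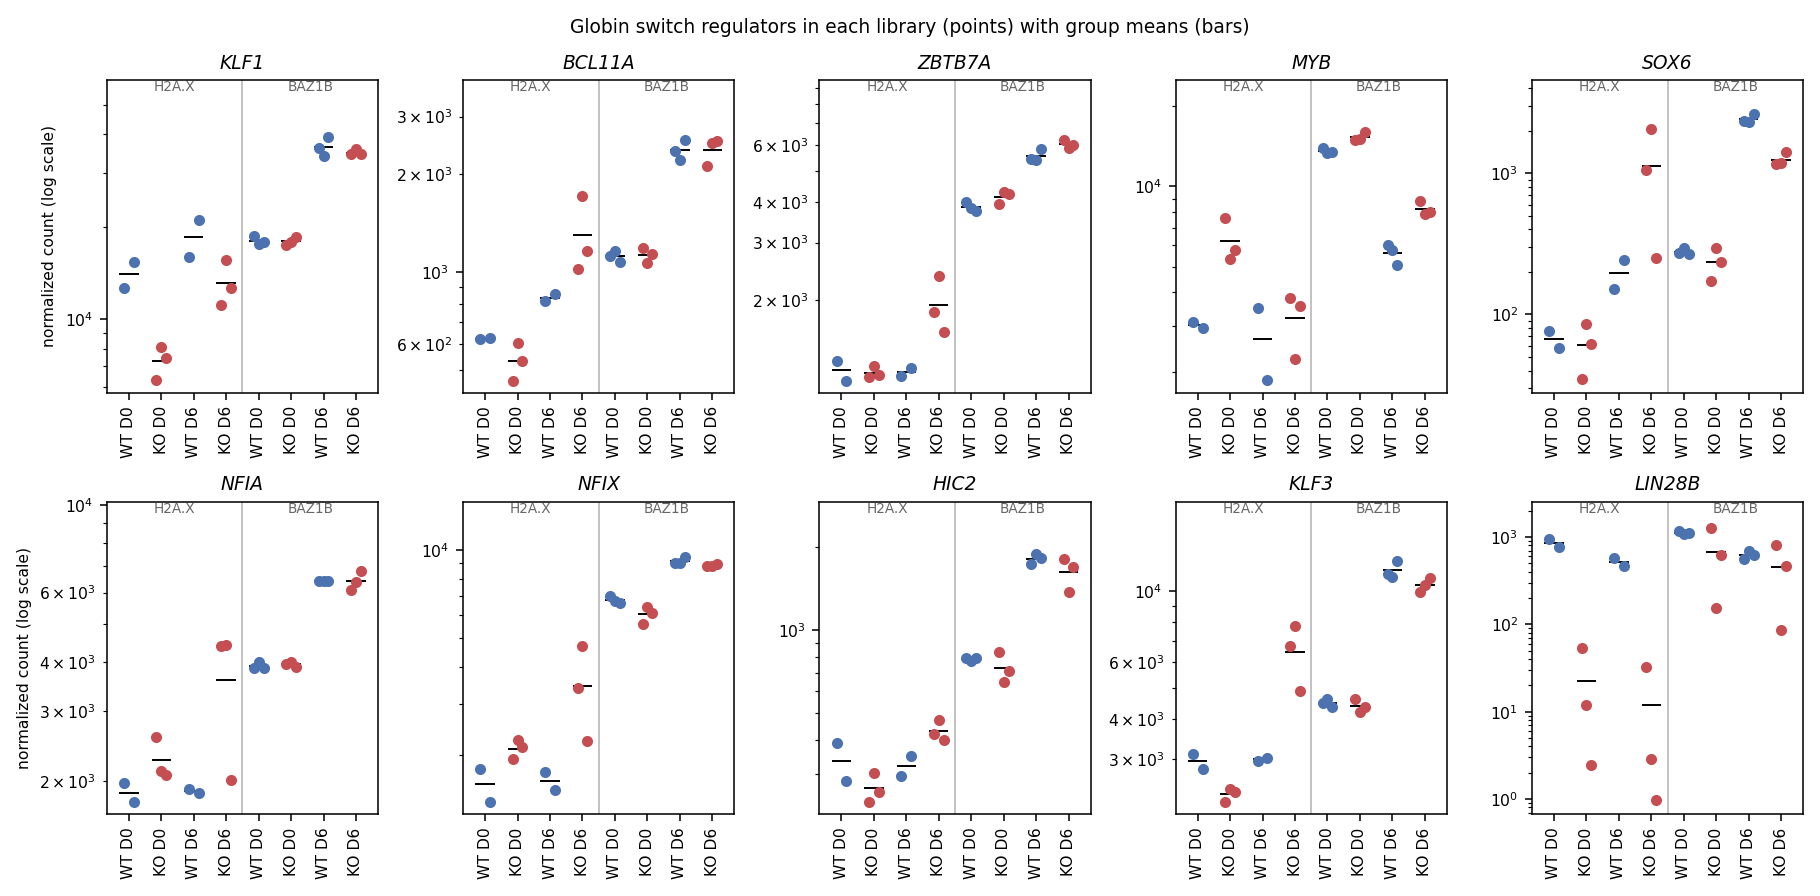
Normalized counts (y axis, log scale) of the 10 regulators in each of 22 libraries, with WT in blue, KO in red and a bar at each group mean, H2A.X experiment left and BAZ1B experiment right in each panel. KLF1, BCL11A, ZBTB7A, SOX6, NFIA, NFIX, HIC2 and KLF3 stood higher at D6 than at D0 in every library of the BAZ1B experiment. MYB stood lower there, and LIN28B was low in all 6 H2A.X KO libraries.

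The first question was how the regulators moved with maturation in each genotype. In WT cells of the BAZ1B experiment, 8 of the 10 regulators rose and 1 fell from D0 to D6, in a comparison that called 68.9% of all genes tested. The same 8 rose and the same 1, MYB, fell in BAZ1B KO cells, where 67.7% of all genes were called. The median log2 fold change of the 10 was 0.87 in WT and 0.83 in KO, against -0.015 and -0.023 over all genes tested, whose medians lay between -0.023 and 0.019 in all 10 comparisons. Only LIN28B passed in neither, though it passed in both with same-numbered libraries paired, and in WT with the WT libraries fitted alone. In H2A.X KO cells 7 regulators rose and 1 fell, with 30.9% of all genes called, and the median was 0.70 against 0.019. In WT cells of the H2A.X experiment edgeR called 0 of 10, with 0 at an unadjusted p below 0.05 and 0 by DESeq2, in a comparison of 2 libraries with 2 that called 2.0% of all genes.

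The second question was how KO cells differed from the WT cells of their own experiment. H2A.X KO cells at D0 had 1 regulator higher and 2 lower than WT, with 35.1% of all genes called, and at D6 they had 6 higher and 1 lower, with 43.1% called. As fitted, the share of the 10 that was called lay near the share of all genes at D0 and above it at D6. The length and GC correction changed the counts to 1 higher and 4 lower at D0, with 20.3% of all genes called. At D6 it changed them to 2 higher and 1 lower, with 21.7% called. The corrected share of the 10 thus lay above that of all genes at D0 and nearer to it at D6. All 7 calls at D6 were lost without WT replicate 2 at D6, and all 3 at D0 without WT replicate 2 at D0. BAZ1B KO cells at D0 had 0 of 10 called by edgeR, with 3 at an unadjusted p below 0.05 and 1 by DESeq2, and 3.88% of all genes called. At D6 they had 1 higher and 1 lower, with 12.8% called. The KO effect differed between the days for 1 regulator in each experiment, KLF3 in the H2A.X experiment (1.34% of all genes called) and MYB in the BAZ1B experiment (2.47% called). Over all genes those differences of effects split into 40 higher and 137 lower in the H2A.X experiment (281 and 399 by DESeq2) and into 219 and 124 in the BAZ1B experiment (171 and 163 with upper-quartile scaling).

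**Figure D2:**
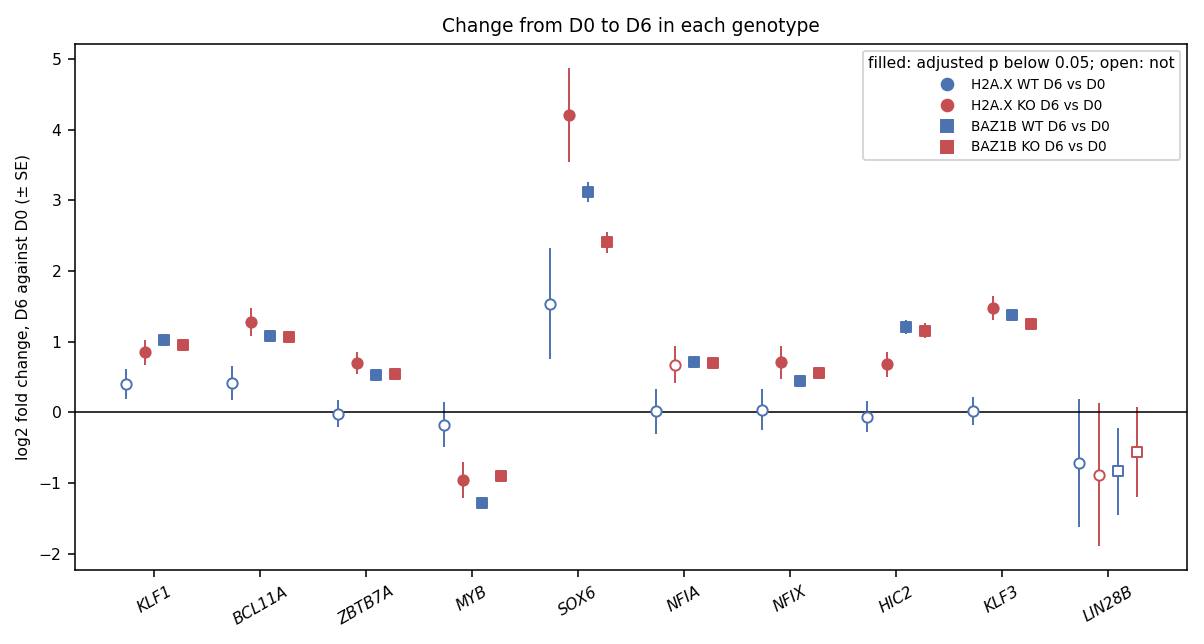
log2 fold change from D0 to D6 (y axis, ± SE) of each regulator in the 4 genotype sets, filled where the adjusted p was below 0.05. SOX6 had the largest rise in each set, MYB lay below 0 in all 4, and the WT set of the H2A.X experiment had no filled point.

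KLF1 lies on chromosome 19 at 12884422 to 12887201 (GRCh38, - strand), in the GENCODE annotation. The 250 bases before its start are shown, credited to RefSeq (GRCh38.p14), because KLF1 is itself switched on by GATA1 in erythroid cells. Capitals mark matches on either strand to the GATA letters (GATA with A or T before it and A or G after it), to CACCC, or to CCNCNCCC. Of 35116 promoter windows of the same length in the table, 22.3% held a GATA match, 54.7% held CACCC and 53.4% held CCNCNCCC. The KLF1 window (chr19:12887202-12887451, - strand) held GATA letters that began 66 and 13 bases before the start, and neither of the other motifs. A match is a description of the letters and not a site of binding.
KLF1: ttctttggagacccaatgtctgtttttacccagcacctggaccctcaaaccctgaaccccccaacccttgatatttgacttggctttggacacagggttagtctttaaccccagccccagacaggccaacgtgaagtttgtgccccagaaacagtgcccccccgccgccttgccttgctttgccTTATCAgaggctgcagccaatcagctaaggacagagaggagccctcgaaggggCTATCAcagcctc

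In WT cells of the BAZ1B experiment KLF1 read 18613, 17532 and 17755 normalized counts at D0 and 35991, 34069.8 and 39108 at D6. In BAZ1B KO cells it read 17463, 17820.1 and 18560.4 at D0 and 34404, 35708 and 34390.0 at D6. Every D6 library stood above every D0 library, and at each day the ranges of WT and KO overlapped. The rise was 1.02 (SE 0.049, adjusted p = 1.53e-09) on the log2 scale in WT and 0.96 (SE 0.049, adjusted p = 2.81e-09) in KO, and the KO against WT difference was -0.0015 (SE 0.049, adjusted p = 0.994) at D0 and -0.063 (SE 0.049, adjusted p = 0.46) at D6.

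In the H2A.X experiment KLF1 read 12612 and 15319 in WT at D0 and 6304, 8070.2 and 7446 in KO. At D6 it read 15916 and 20987 in WT and 11127, 15539.7 and 12644 in KO. All 3 KO libraries lay below both WT libraries at D0, and again at D6, where the gap between the highest KO and the lowest WT value was small. At D0 KLF1 was 1.92-fold lower in KO (-0.94 on the log2 scale with an SE of 0.20, adjusted p = 0.009). KLF1 has a short transcript, and with the length and GC correction the difference was -0.14 (adjusted p = 0.585). Without WT replicate 2 at D0 the adjusted p was 0.102. At D6 the difference did not pass (-0.49 on the log2 scale with an SE of 0.20, adjusted p = 0.0655) and alternatives gave calls on both sides of 0. Upper-quartile scaling gave -0.60 (adjusted p = 0.0283) and the fit without KO replicate 2 at D6 gave -0.64 (adjusted p = 0.0354), whereas the correction turned the sign, to 0.63 (adjusted p = 0.0348). From D0 to D6 KLF1 rose within H2A.X KO cells (0.85 on the log2 scale with an SE of 0.18, adjusted p = 0.00592), with D6 to D0 ratios of 1.77, 1.93 and 1.70 by replicate number, against 1.26 and 1.37 in WT (0.40 on the log2 scale with an SE of 0.22, adjusted p = 0.326).

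KLF3, which KLF1 itself activates, was the regulator whose H2A.X KO effect differed between the days. It read 3099.5 and 2791 in WT and 2203, 2417 and 2361 in KO at D0, then 2949 and 3028 in WT and 6764, 7803 and 4873 in KO at D6. The KO libraries lay below both WT libraries at D0 and above both at D6, KO replicate 3, without the word Redo, included. At D0 the difference did not pass (-0.34 on the log2 scale with an SE of 0.18, adjusted p = 0.168), and at D6 KLF3 was 2.17-fold higher in KO (1.12 on the log2 scale with an SE of 0.19, adjusted p = 0.00397). The difference between the 2 effects passed as well (1.46 on the log2 scale with an SE of 0.26, adjusted p = 0.0285). With the length and GC correction the D0 difference was -0.82 (adjusted p = 0.00854) and the D6 difference 0.46 (adjusted p = 0.0527), while the difference between them remained at 1.28 (adjusted p = 0.0182). That call was lost in 7 of the 10 fits that left out 1 library, with a highest adjusted p of 0.129. KLF3 rose with maturation in H2A.X KO (1.48 on the log2 scale with an SE of 0.17, adjusted p = 0.000285) and not detectably in WT (0.021 on the log2 scale with an SE of 0.20, adjusted p = 0.968).

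In the BAZ1B experiment KLF3 rose from 4464, 4610.4 and 4354 to 11292, 11068 and 12443 in WT (1.37 on the log2 scale with an SE of 0.055, adjusted p = 3.52e-10). In KO it rose from 4601, 4202 and 4359 to 9909, 10483 and 10973 (1.25 on the log2 scale with an SE of 0.055, adjusted p = 6.71e-10). All 3 KO libraries lay below all 3 WT libraries at D6, a difference of -0.15 (SE 0.054, adjusted p = 0.0888) that did not pass. The antisense gene KLF3-AS1 overlaps 3.9% of the annotated KLF3 exon bases, and reads of the pair could not be told apart because the strand used in counting was not given in the sources used here. Such overlaps covered 3.0% of LIN28B, 1.9% of MYB, 1.0% of NFIX and 0.4% of SOX6.

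MYB was the member that the edgeR fit called lower with maturation, while LIN28B fell without passing in that fit. In WT cells of the BAZ1B experiment it went from 13942, 13399 and 13467 at D0 to 6038, 5759.6 and 5053 at D6 (-1.28 on the log2 scale with an SE of 0.063, adjusted p = 1.74e-09). In BAZ1B KO cells it went from 14901, 15120.2 and 16073 to 8785, 7898 and 8011 (-0.90 on the log2 scale with an SE of 0.062, adjusted p = 4e-08). The 3 KO libraries stood above the 3 WT libraries at both days, and the gap was wider at D6. At D0 the difference did not pass (0.18 on the log2 scale with an SE of 0.062, adjusted p = 0.163). At D6 MYB was 1.47-fold higher in BAZ1B KO cells (0.55 on the log2 scale with an SE of 0.063, adjusted p = 0.000113), a call kept in all 20 alternative fits at the same threshold. The difference between the days was 0.38 (SE 0.088, adjusted p = 0.0436), and 0.38 (adjusted p = 0.017) where the libraries of the same number at D0 and D6 were paired. It was lost with upper-quartile scaling and in 9 of the 12 fits without 1 library, with a highest adjusted p of 0.119.

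In the H2A.X experiment MYB read 3107 and 2937 in WT at D0 against 7634, 5335 and 5759.8 in KO. At D6 it read 3482 and 1872 against 3821, 2256 and 3561. All KO libraries were higher at D0, and the groups overlapped at D6. The D0 difference was 2.07-fold (1.05 on the log2 scale with an SE of 0.30, adjusted p = 0.0234), 0.90 with the length and GC correction (adjusted p = 0.0454), and lost without WT replicate 1, WT replicate 2 or KO replicate 1 at D0. The D6 difference was 0.26 (SE 0.29, adjusted p = 0.484). MYB fell within H2A.X KO cells (-0.96 on the log2 scale with an SE of 0.26, adjusted p = 0.0193), a call lost without KO replicate 1 at D0 or KO replicate 2 at D6, whereas the 2 WT libraries moved in opposite directions, with D6 to D0 ratios of 1.12 and 0.637. KIT, the stem cell factor receptor, was also higher in H2A.X KO at D0, at 1.63 (SE 0.40, adjusted p = 0.0138), and in BAZ1B KO at D6, at 0.60 (SE 0.16, adjusted p = 0.0226).

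Markers of other cells moved with some of these results. The summed level of 8 mast cell and eosinophil markers was 33.5 to 41.1 CPM in H2A.X-experiment WT at D0 and 103 to 199.9 CPM in H2A.X KO at D0, the comparison in which MYB and KIT were higher. At D6 it was 42.8 to 80 CPM in WT and 1.14 to 5.0 CPM in KO. In the BAZ1B experiment it fell from 196 to 289 CPM over the D0 libraries to 3.87 to 15.6 CPM at D6. CLC was at 0 in 7 of the 8 groups. In H2A.X-experiment WT at D0 and in all groups at D6, 7 of these 8 markers stayed under 1 CPM, against 4 in H2A.X KO at D0. The summed level of 5 megakaryocyte markers was 8.72 to 9.67 CPM in H2A.X-experiment WT and 32.7 to 75.7 CPM in H2A.X KO at D0. PF4, PPBP and GP1BA were at 0 there. In every group 4 of the 5 stayed under 1 CPM, so that these D0 sums came almost wholly from 1 gene. The summed level of the 9 erythroid markers at D0 was 22721 to 31044 CPM in WT and 11576 to 15456 CPM in H2A.X KO, the comparison in which KLF1 was lower. At D6 of the BAZ1B experiment, where MYB was higher and SOX6 lower in KO, the megakaryocyte sum was 8.32 to 10.4 CPM in WT and 1.42 to 4.77 CPM in KO. The erythroid sum there was 37137 to 42679.7 CPM in WT and 31240.2 to 36996 CPM in KO, so that neither overlapped. At D0 of that experiment edgeR called 0 regulators. The megakaryocyte sum was lower in KO at D0 too, at 34.4 to 67.6 CPM against 72.3 to 75.5 CPM in WT. The erythroid sum was higher in KO at D0, at 6933 to 7425 CPM against 5820 to 6570 CPM in WT. The part of these cells or genes in the regulators' values was not tested.

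BCL11A lies on chromosome 2 at 60450520 to 60554467 (- strand) and is shown with its upstream window because KLF family proteins bind CACCC-like letters there in erythroid cells. The window (chr2:60553655-60553904, - strand) had a GC content of 72%, held 6 matches to CCNCNCCC, and held no GATA match and no CACCC.
BCL11A: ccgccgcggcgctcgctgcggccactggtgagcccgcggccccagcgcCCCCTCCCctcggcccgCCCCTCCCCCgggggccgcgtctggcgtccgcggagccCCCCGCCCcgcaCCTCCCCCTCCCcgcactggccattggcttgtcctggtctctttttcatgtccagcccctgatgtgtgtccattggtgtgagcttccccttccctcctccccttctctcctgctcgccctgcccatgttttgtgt

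BCL11A read 1122, 1157 and 1076 in WT at D0 of the BAZ1B experiment and 2349, 2213 and 2545 at D6. In BAZ1B KO cells it read 1184, 1069 and 1133 at D0 and 2119, 2489 and 2523 at D6. Every D6 library stood above every D0 library, and WT and KO overlapped at each day. The rise was 2.12-fold in WT (1.08 on the log2 scale with an SE of 0.073, adjusted p = 3.11e-08) and 2.11-fold in KO (1.07 on the log2 scale with an SE of 0.073, adjusted p = 3.62e-08), and the KO against WT difference was 0.013 (SE 0.074, adjusted p = 0.962) at D0 and 0.0039 (SE 0.071, adjusted p = 0.984) at D6.

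In the H2A.X experiment BCL11A read 622 and 627 in WT and 464, 605 and 535 in KO at D0, and 812 and 854 in WT and 1020.2, 1712 and 1160.4 in KO at D6. The KO libraries lay below WT at D0 and above WT at D6. The D0 difference did not pass as fitted (-0.22 on the log2 scale with an SE of 0.22, adjusted p = 0.435) and was -0.74 (adjusted p = 0.0442) with the length and GC correction. At D6 BCL11A was 1.56-fold higher in KO (0.64 on the log2 scale with an SE of 0.22, adjusted p = 0.0385), a call kept in 9 of 18 alternative fits and absent after the length and GC correction, at 0.017 (adjusted p = 0.964). Within KO cells BCL11A rose 2.43-fold with maturation (1.28 on the log2 scale with an SE of 0.20, adjusted p = 0.00123), which passed in all 18 alternative fits. Within WT cells both ratios were above 1, at 1.31 and 1.36, and did not pass (0.42 on the log2 scale with an SE of 0.24, adjusted p = 0.352).

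ZBTB7A, also called LRF, moved in the same direction as BCL11A in H2A.X KO cells at D6. It read 1300.1 and 1128 in WT and 1156, 1255 and 1169 in KO at D0, 1165 and 1235 in WT and 1830.1, 2373 and 1596 in KO at D6. The groups overlapped at D0 and the KO libraries stood above WT at D6. The D6 difference was 0.69 (SE 0.18, adjusted p = 0.0125) and, length and GC corrected, 0.31 (adjusted p = 0.154). The rise within KO was 0.70 (SE 0.16, adjusted p = 0.00809), against -0.018 (SE 0.19, adjusted p = 0.972) in WT. In the BAZ1B experiment ZBTB7A rose 1.44-fold in WT and 1.45-fold in KO, from 3753 to 4291 normalized counts over the 6 D0 libraries to 5408 to 6222 over the 6 D6 libraries. Its KO against WT difference was 0.10 (SE 0.045, adjusted p = 0.285) at D0 and 0.12 (SE 0.044, adjusted p = 0.107) at D6, where all 3 KO libraries lay above WT.

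SOX6 changed most with maturation. Its gene spans 15966449 to 16739591 of chromosome 11 (- strand). The window before its RefSeq start, which lies inside this span (chr11:16356547-16356796, - strand), is shown for its contrast with that of BCL11A. It was poor in GC, at 39.2%, and held 1 GATA match, 227 bases before the start, with no CACCC or CCNCNCCC.
SOX6: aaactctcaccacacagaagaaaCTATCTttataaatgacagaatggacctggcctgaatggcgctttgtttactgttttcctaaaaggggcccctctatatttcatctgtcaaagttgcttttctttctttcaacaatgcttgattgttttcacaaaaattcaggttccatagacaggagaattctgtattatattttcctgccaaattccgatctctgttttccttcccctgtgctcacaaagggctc

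For SOX6 the BAZ1B libraries read 273, 296 and 267 in WT and 171, 297 and 234 in KO at D0, with overlap. At D6 it read 2329, 2315 and 2622 in WT and 1155, 1174 and 1407 in KO, with every KO library below every WT library. The rise was 8.69-fold in WT (3.12 on the log2 scale with an SE of 0.14, adjusted p = 1.08e-09) and 5.30-fold in KO (2.41 on the log2 scale with an SE of 0.15, adjusted p = 1.31e-08). At D6 SOX6 was 1.94-fold lower in BAZ1B KO cells (-0.96 on the log2 scale with an SE of 0.13, adjusted p = 0.000428), again kept in all 20 alternative fits, whereas the D0 difference did not pass (-0.25 on the log2 scale with an SE of 0.16, adjusted p = 0.495). The difference between the days was -0.71 (SE 0.20, adjusted p = 0.0939), and -0.70 (adjusted p = 0.0389) with same-numbered libraries paired. SOX6, lower, and MYB, higher, were the 2 regulators called in BAZ1B KO cells at D6.

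In the H2A.X experiment SOX6 went the other way at D6. It read 76.8 and 57.4 in WT and 34.7, 85.8 and 61.7 in KO at D0, and 152 and 243 in WT and 1059.7, 2063 and 251 in KO at D6. KO replicates 1 and 2 stood far above WT at D6, while replicate 3, the library without the word Redo, lay next to the higher WT value. The D6 difference was 5.73-fold (2.52 on the log2 scale with an SE of 0.72, adjusted p = 0.019), and 1.54 with the length and GC correction (adjusted p = 0.117). Without either WT library at D6, or without KO replicate 2 at D6, it did not pass, and its values over the fits without 1 library ran from 1.74 to 3.03. The rise within H2A.X KO cells passed in all 18 alternative fits (4.21 on the log2 scale with an SE of 0.67, adjusted p = 0.00149). In WT cells the ratios were 1.98 and 4.24 (1.54 on the log2 scale with an SE of 0.79, adjusted p = 0.297). Whether the H2A.X and BAZ1B effects on SOX6 differed was not tested, since the experiments were normalized apart.

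NFIA and NFIX rose with maturation in the BAZ1B experiment and did not differ detectably between its genotypes. NFIA went from 3855, 4012 and 3859.6 to 6424, 6428 and 6403 in WT (0.72 on the log2 scale with an SE of 0.04, adjusted p = 4.68e-09), with KO libraries at 6108, 6394 and 6812 at D6. NFIX went from 6953, 6710.2 and 6595 to 9027, 9041 and 9482 in WT (0.44 on the log2 scale with an SE of 0.047, adjusted p = 2.14e-06). The KO libraries of NFIX at D0, 5605, 6422 and 6091, all lay below WT, at -0.16 (SE 0.047, adjusted p = 0.0855), and DESeq2 gave an adjusted p of 0.0358 for it. At D6 NFIX differed by -0.051 (SE 0.047, adjusted p = 0.544) and NFIA by 0.0043 (SE 0.039, adjusted p = 0.963).

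In H2A.X KO cells at D6, NFIA read 4406, 4415 and 2005 against 1912 and 1859 in WT, and NFIX read 3379, 4697 and 2245 against 1750.0 and 1523. For both genes KO replicates 1 and 2 were far above WT and replicate 3 was the lowest KO library, just above WT for NFIA. NFIA was 1.91-fold higher (0.94 on the log2 scale with an SE of 0.30, adjusted p = 0.0277) and NFIX 2.10-fold higher (1.07 on the log2 scale with an SE of 0.27, adjusted p = 0.0111). With the length and GC correction NFIA was at -0.023 (adjusted p = 0.945) and NFIX at 0.83 (adjusted p = 0.033). NFIX was thus, beside LIN28B, the D6 call of H2A.X KO cells that the correction left, while KLF1 was gained. At D0 NFIA read 1969 and 1764 in WT and 2582, 2117 and 2069.9 in KO, a difference of 0.27 (SE 0.29, adjusted p = 0.476) that did not pass and was -0.57 (adjusted p = 0.0621) with the correction. NFIX read 1793 and 1390.3 in WT and 1940.4, 2250.0 and 2136 in KO at D0, where all KO libraries were higher but the difference, 0.41 (SE 0.26, adjusted p = 0.245), did not pass either. With maturation NFIX rose in H2A.X KO (0.71 on the log2 scale with an SE of 0.23, adjusted p = 0.0424), in 8 of 18 alternative fits. NFIA changed by 0.68 (SE 0.26, adjusted p = 0.0706), and by 0.60 (adjusted p = 0.0387) with same-numbered libraries paired or 0.67 (adjusted p = 0.0143) with the correction.

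**Figure D3:**
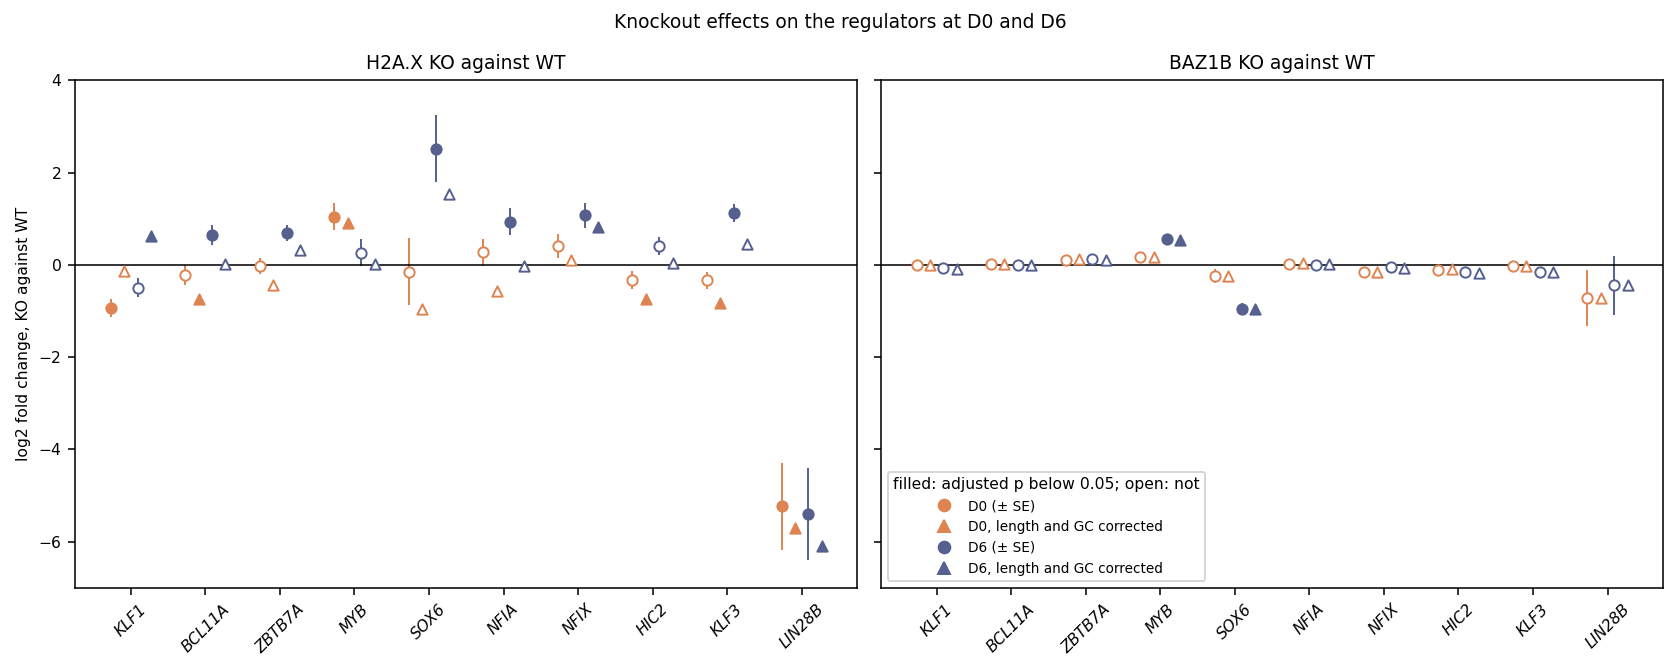
log2 fold change of KO against WT (y axis) for each regulator at D0 (orange) and D6 (blue), as fitted (circles, ± SE) and after the length and GC correction (triangles), filled where the adjusted p was below 0.05. In the H2A.X panel most triangles lie below their circles and LIN28B lies under -4 at both days, and in the BAZ1B panel the filled points are MYB and SOX6 at D6.

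LIN28B held the largest difference between genotypes among the 10. The gene lies on chromosome 6 at 104936616 to 105083332 (+ strand), and the window before its RefSeq start, inside this span (chr6:104956857-104957106, + strand), held GATA letters that began 195 and 122 bases before the start, in 38.4% GC.
LIN28B: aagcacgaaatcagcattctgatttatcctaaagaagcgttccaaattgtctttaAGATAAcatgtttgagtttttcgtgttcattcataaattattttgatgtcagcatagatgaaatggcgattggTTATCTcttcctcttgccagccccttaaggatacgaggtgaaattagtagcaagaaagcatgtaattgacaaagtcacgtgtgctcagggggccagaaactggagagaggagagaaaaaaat

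LIN28B and let-7 miRNAs act on each other, as LIN28B blocks let-7 processing and let-7 pairs with the LIN28B transcript, so the matching letters are shown. All 9 mature let-7 family miRNAs in the RefSeq table, 22 bases each, share the seed GAGGUAG (bases 2 to 8, in capitals).
hsa-let-7a-5p: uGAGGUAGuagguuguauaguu
hsa-let-7g-5p: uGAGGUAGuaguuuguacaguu
hsa-miR-98-5p: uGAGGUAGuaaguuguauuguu

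The complement of this seed, CTACCTC, occurred 4 times in the 4549 bases of the annotated LIN28B 3′ UTR and 4 times in the 4720 bases of that of HIC2, both on the + strand of GRCh38. Of 19512 annotated 3′ UTRs, 9.76% held at least 1 such match and 12 held 4 or more. NFIA held 1, and the other 7 regulators held 0. The matches of LIN28B and HIC2 are shown in capitals within 22 bases, named by the position of the capitals.
LIN28B chr6:105078827-105078833: cggttgcaaagtCTACCTCatg
LIN28B chr6:105081254-105081260: tgatgatagtaaCTACCTCtga
LIN28B chr6:105081436-105081442: tacagcaaaaggCTACCTCata
LIN28B chr6:105082875-105082881: tgatggtgttgaCTACCTCttg
HIC2 chr22:21446954-21446960: gtcccagcccgtCTACCTCccc
HIC2 chr22:21447286-21447292: tgaccccaccgcCTACCTCtct
HIC2 chr22:21447901-21447907: tctgaccttttgCTACCTCttg
HIC2 chr22:21450897-21450903: gaccccctccccCTACCTCacc

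LIN28B read 936 and 765 in WT and 53.3, 12 and 2.47 in H2A.X KO at D0, and 572 and 463 in WT and 32.1, 2.85 and 0.965 in KO at D6. Every KO library lay far below every WT library of its day, and KO replicate 3 held 3 raw reads at D0 and 1 at D6. LIN28B was 37.5-fold lower at D0 (-5.23 on the log2 scale with an SE of 0.95, adjusted p = 0.0067) and 42.2-fold lower at D6 (-5.40 on the log2 scale with an SE of 1.0, adjusted p = 0.00444). The length and GC correction left -5.70 (adjusted p = 0.00652) and -6.10 (adjusted p = 0.00829). Both calls were kept in 17 of 18 alternative fits. They were lost without WT replicate 2 of the same day, with an adjusted p of 0.0783 at D0 and 0.0549 at D6, in fits where 1 WT library was left.

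LIN28B split the BAZ1B KO subclones. WT cells read 1174, 1068 and 1107 at D0 and 566, 683 and 628 at D6. KO replicates 1, 2 and 3 read 1266, 153 and 619 at D0 and 813, 85.9 and 470.0 at D6. Replicate 1 lay above all WT libraries at both days, replicate 3 was lower and replicate 2 was the lowest by far. The coefficient of variation among KO libraries was 82.3% at D0 and 79.7% at D6, against 4.77% and 9.40% in WT, and 50 of 10902 genes with a mean of at least 50 normalized counts varied more among the KO libraries at D0, and 33 of 10580 at D6. The KO against WT difference did not pass at D0 (-0.72 on the log2 scale with an SE of 0.62, adjusted p = 0.643) or at D6 (-0.44 on the log2 scale with an SE of 0.64, adjusted p = 0.723).

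LIN28B fell from D0 to D6 in every one of the 11 same-numbered pairs, although H2A.X KO replicates 2 and 3 held at most 14 raw reads at D0 and 3 at D6. The D6 to D0 ratios were 0.611 and 0.606 in the WT cells of the H2A.X experiment, 0.482, 0.640 and 0.567 in those of the BAZ1B experiment, and 0.643, 0.560 and 0.760 in BAZ1B KO. The unpaired fit passed in none of the 4 genotype sets, at -0.84 (SE 0.62, adjusted p = 0.248) in BAZ1B-experiment WT and -0.56 (SE 0.64, adjusted p = 0.454) in BAZ1B KO. With same-numbered libraries paired the values were -0.84 (adjusted p = 3.38e-06) and -0.58 (adjusted p = 0.000229), and -1.02 (adjusted p = 0.0296) in H2A.X KO. In WT cells of the H2A.X experiment the paired value did not pass, at -0.72 (adjusted p = 0.0659). An unpaired edgeR fit of the BAZ1B-experiment WT libraries without the KO libraries gave -0.83 (adjusted p = 2.72e-08).

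**Figure D4:**
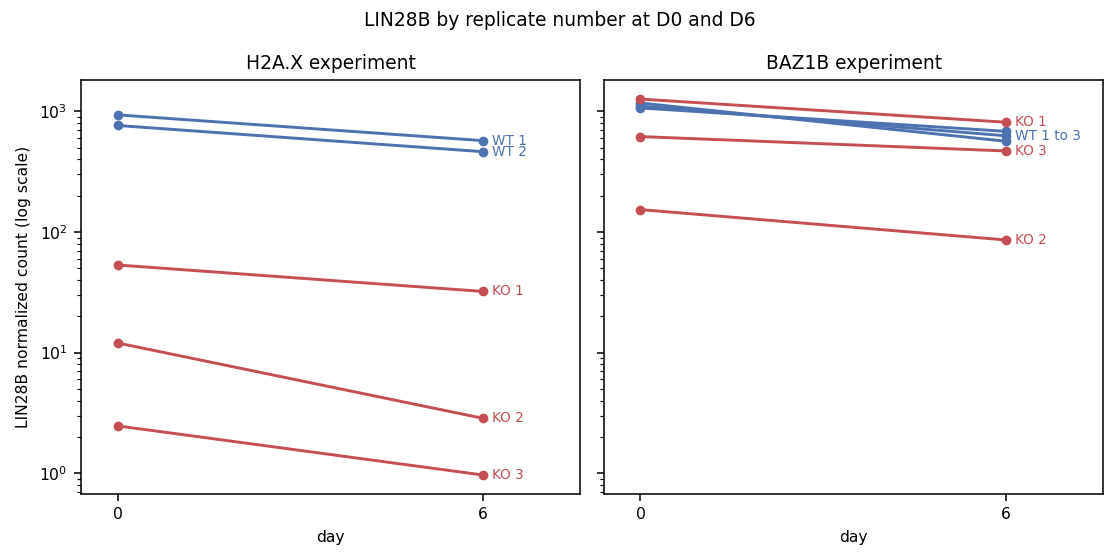
LIN28B normalized counts (y axis, log scale) at D0 and D6 (x axis, day), with lines joining libraries of the same replicate number. Each line falls from D0 to D6, H2A.X KO lines lie below both WT lines, and the 3 BAZ1B KO lines lie apart, with KO 1 above WT and KO 2 lowest.

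The 3 genes beside LIN28B on chromosome 6 that had enough counts to test, picked after its values were seen, showed no fall of that size. HACE1, a ubiquitin ligase gene, read 235 and 183 in WT and 334, 252 and 299 in H2A.X KO at D0, a difference of 0.50 (SE 0.28, adjusted p = 0.182), and it was higher in KO at D6, by 1.07 (SE 0.29, adjusted p = 0.0141), or 0.53 (adjusted p = 0.123) with the length and GC correction. PREP, which encodes a peptidase, differed by 0.026 (SE 0.15, adjusted p = 0.903) at D0, and with the correction it was lower, at -0.62 (adjusted p = 0.0294). ATG5, an autophagy gene, differed by -0.17 (SE 0.16, adjusted p = 0.429). BVES, POPDC3 and PRDM1, also nearby, held at most 2.26 normalized counts in any library and could show no fall. In the 3 BAZ1B KO libraries at D0, where LIN28B ranged from 153 to 1266, HACE1 read 549.7, 555 and 583, PREP read 3012, 2659 and 2731, and ATG5 read 2275, 2751 and 2630.4.

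HIC2, with as many let-7 seed matches as LIN28B, showed no such difference. In H2A.X cells it read 389 and 282 in WT and 238, 304 and 259 in KO at D0, and 296 and 349 in WT and 419, 470.4 and 398 in KO at D6. The groups overlapped at D0, and the KO libraries stood above WT at D6 without passing (0.41 on the log2 scale with an SE of 0.20, adjusted p = 0.116). With the length and GC correction the D0 difference was -0.75 (adjusted p = 0.015), against -0.33 (SE 0.20, adjusted p = 0.203) without it. HIC2 rose within H2A.X KO cells (0.68 on the log2 scale with an SE of 0.18, adjusted p = 0.015) and not detectably in WT (-0.062 on the log2 scale with an SE of 0.22, adjusted p = 0.906). Within the BAZ1B experiment it rose from 789.8, 772 and 795 to 1739, 1889.7 and 1839 in WT (1.21 on the log2 scale with an SE of 0.10, adjusted p = 2.14e-07). BAZ1B KO replicate 2, the library lowest in LIN28B, was also the lowest in HIC2, at 649 at D0 and 1374 at D6. The KO against WT difference was -0.10 (SE 0.10, adjusted p = 0.7) at D0 and -0.16 (SE 0.098, adjusted p = 0.332) at D6.

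Other genes of the LIN28 and let-7 pathway were read from a list of 13, of which 12 were tested. H2A.X KO cells had 3 higher and 1 lower at D0 and 5 higher and 1 lower at D6, and 3 higher and 3 lower and 2 higher and 2 lower with the length and GC correction. Medians as fitted were 0.13 and 0.17 there, and -0.013 and 0.02 in BAZ1B KO. Of all genes 3.88% and 12.8% were called in BAZ1B KO at D0 and D6, and 35.1% and 43.1% in H2A.X KO (20.3% and 21.7% corrected). HMGA2, a chromatin protein gene with 4 seed matches of its own, was the lower one, going from 869 ± 18.4 to 333 ± 66.7 normalized counts between WT and KO at D0 (-1.38, SE 0.25, adjusted p = 0.00685) and from 496 ± 93.7 to 148 ± 45.8 at D6 (-1.74, SE 0.26, adjusted p = 0.00337). TUT4, a uridylyl transferase that acts on let-7 precursors, was higher, at 1.82 (SE 0.37, adjusted p = 0.0088) and 2.22 (SE 0.41, adjusted p = 0.00436). IGF2BP1, an RNA-binding protein gene with 4 seed matches and chosen for them, read 1423 and 1193 in WT and 1429.7, 1429 and 1451 in KO at D0, a difference of 0.14 (SE 0.17, adjusted p = 0.56), and of -0.58 (adjusted p = 0.0254) with the correction. In BAZ1B KO cells edgeR called 0 of the 12 at D0 (1 at an unadjusted p below 0.05, 0 by DESeq2) and at D6 0 higher and 1 lower, the lower one being ARID3A, a DNA-binding factor controlled by LIN28B and let-7 in fetal B lymphopoiesis, at -0.57 (SE 0.13, adjusted p = 0.0149). With maturation ARID3A rose in BAZ1B-experiment WT, at 1.62 (SE 0.14, adjusted p = 3.15e-07), in BAZ1B KO, at 0.97 (SE 0.14, adjusted p = 4.14e-05), and in H2A.X KO, at 1.25 (SE 0.26, adjusted p = 0.00584).

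Targets of KLF1, 20 genes listed from textbook knowledge of which 19 were tested, rose with maturation beside it. In the BAZ1B experiment 18 higher and 1 lower were called in WT and 19 higher and 0 lower in KO, with medians of 1.44 and 1.35. Those comparisons called 68.9% and 67.7% of all genes. SLC4A1, the band 3 anion exchanger, rose on the log2 scale by 6.82 (SE 0.25, adjusted p = 1.85e-10) in WT and 8.94 (SE 0.28, adjusted p = 6.03e-11) in KO. AQP1, the water channel, rose by 6.75 (SE 0.33, adjusted p = 1.63e-09) and 7.59 (SE 0.36, adjusted p = 1.25e-09). ALAS2, the first enzyme of erythroid heme synthesis, rose by 3.0 (SE 0.13, adjusted p = 6.26e-10) and 2.91 (SE 0.13, adjusted p = 7.64e-10). In H2A.X KO cells the count was 15 higher and 0 lower. In WT cells of that experiment it was 1 higher and 1 lower, or 4 higher and 1 lower with same-numbered libraries paired. As fitted, 30.9% of all genes were called in H2A.X KO and 2.0% in WT.

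H2A.X KO cells at D0, where KLF1 was lower as fitted, had 1 higher and 11 lower of the 19 KLF1 targets, and 0 higher and 8 lower with the length and GC correction. Their median was -0.70 at D0 and 0.47 at D6, where 35.1% and 43.1% of all genes were called (20.3% and 21.7% corrected). The lower genes included AQP1, from 473 ± 65.5 to 26.7 ± 14.8 normalized counts between WT and KO (-4.14, SE 0.38, adjusted p = 0.000619). SLC4A1 was at -2.75 (SE 0.84, adjusted p = 0.0302) and AHSP, the α-globin chaperone, at -1.62 (SE 0.33, adjusted p = 0.0088), or -0.79 (adjusted p = 0.0373) corrected. At D6 the count turned to 6 higher and 2 lower, and 4 higher and 0 lower corrected, with the membrane skeleton gene ANK1 at 1.53 (SE 0.30, adjusted p = 0.00501) among the higher ones. ANK1 was at 1.0 (adjusted p = 0.0142) with the correction. BAZ1B KO cells, in which KLF1 did not differ detectably, had 1 higher and 1 lower at D0 (median -0.074) and 3 higher and 4 lower at D6 (median -0.13). The shares of all genes called there were 3.88% and 12.8%. SLC4A1 was lower at both days, from 1206 ± 62.1 to 164 ± 81.8 at D0 (-2.88, SE 0.25, adjusted p = 2.53e-05) and from 136732 ± 17234 to 80179 ± 13730.4 at D6 (-0.77, SE 0.19, adjusted p = 0.0185), while PKLR, the red cell pyruvate kinase, was higher at D6, at 0.46 (SE 0.052, adjusted p = 0.000109).

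The globin genes are what the regulators act on. Of 10 listed, 9 were tested, and 9 higher and 0 lower were called with maturation in BAZ1B-experiment WT, 9 higher and 0 lower in BAZ1B KO and 6 higher and 0 lower in H2A.X KO, with medians of 3.68, 3.37 and 2.89. These sets called 68.9%, 67.7% and 30.9% of all genes. BAZ1B KO cells had 1 higher and 2 lower than WT at D0 (median -0.47) and 0 higher and 5 lower at D6 (median -0.69). For all genes the shares called there were 3.88% and 12.8%. In WT cells of the H2A.X experiment edgeR called 0, with 4 at an unadjusted p below 0.05, 1 by DESeq2 and 7 higher and 0 lower with same-numbered libraries paired. γ-Globin reads made up at most 0.528% of β-like globin reads in any library. HBG2 read 1052, 946 and 1247 in WT and 167, 94 and 173 in BAZ1B KO at D6, with every KO library below WT, a difference of -2.90 (SE 0.31, adjusted p = 8.22e-05), and of -2.44 (SE 0.45, adjusted p = 0.00785) at D0. The γ-globin share of β-like reads at D6 was 0.145% to 0.158% in WT and 0.0155% to 0.0325% in BAZ1B KO, while BCL11A RNA overlapped between the same libraries. HBB itself was higher in BAZ1B KO at D0 (0.55 on the log2 scale with an SE of 0.11, adjusted p = 0.0155) and at D6 it was at -0.29 (SE 0.11, adjusted p = 0.111). HBG1 and HBG2 are nearly identical, and so are HBA1 and HBA2, so that counts within each pair are uncertain.

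In H2A.X KO cells 0 higher and 5 lower of the 9 globin genes were called at D0 and 0 higher and 1 lower at D6, and 0 higher and 1 lower and 2 higher and 0 lower with the length and GC correction. Their median was -1.23 at D0 and -0.78 at D6, where 35.1% and 43.1% of all genes were called (20.3% and 21.7% corrected). HBB read 235170.0 and 365110.4 in WT and 114937, 142113 and 126868 in KO at D0 (-1.23 on the log2 scale with an SE of 0.32, adjusted p = 0.0171). With the correction the D0 difference was -0.45 (adjusted p = 0.199), and the call was also lost without WT replicate 2, KO replicate 1 or KO replicate 3 at D0. At D6 the groups overlapped (-0.21 on the log2 scale with an SE of 0.32, adjusted p = 0.62), and the correction turned the sign, to 0.90 (adjusted p = 0.032). HBG2 varied from 135 to 3981 among the H2A.X KO libraries at D6, around the WT values of 717 and 2407. The KO library highest in HBG2, replicate 2, was also the highest in KLF1, BCL11A, ZBTB7A, SOX6, NFIA, NFIX, HIC2 and KLF3 and the lowest in MYB. Globin genes held 4.34% of its reads, the largest share among the KO libraries at D6.

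Co-repressors and other cofactors of fetal globin silencing were less uniform. Of 30 genes, all tested, H2A.X KO cells had 6 higher and 5 lower at D0 and 7 higher and 5 lower at D6, and 1 higher and 8 lower and 4 higher and 6 lower with the length and GC correction. Medians as fitted were 0.091 and 0.20 there, and 0.0043 and 0.053 in BAZ1B KO at D0 and D6. Of all genes 35.1% and 43.1% were called in H2A.X KO (20.3% and 21.7% corrected), and 3.88% and 12.8% in BAZ1B KO. The part of the list called as fitted lay near these shares. In H2A.X KO cells CHD4, the NuRD helicase, was lower at D6, at -1.44 (SE 0.22, adjusted p = 0.00354), and so was MBD3, at -1.15 (SE 0.25, adjusted p = 0.00647). NR2C2, an orphan nuclear receptor that binds γ-globin promoters, was higher, at 1.46 (SE 0.30, adjusted p = 0.00579), or 0.68 (adjusted p = 0.0456) corrected. BAZ1B KO cells had 0 of 30 called at D0 by edgeR, with 1 at an unadjusted p below 0.05 and 1 by DESeq2, and 3 higher and 1 lower at D6, where the related helicase CHD3 was at 0.22 (SE 0.043, adjusted p = 0.00419). With maturation 10 higher and 12 lower were called in BAZ1B-experiment WT, 11 higher and 7 lower in BAZ1B KO and 5 higher and 4 lower in H2A.X KO, and 0 by edgeR in H2A.X-experiment WT (6 at an unadjusted p below 0.05, 2 by DESeq2). EIF2AK1, the heme-regulated kinase, rose in all 3 of the first sets, at 1.04 (SE 0.061, adjusted p = 7.6e-09), 0.87 (SE 0.061, adjusted p = 4.32e-08) and 1.07 (SE 0.21, adjusted p = 0.00385). Those sets called 68.9%, 67.7% and 30.9% of all genes.

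Among 9 partners and neighbours of KLF1 and MYB, 7 higher and 2 lower were called with maturation in BAZ1B-experiment WT, 6 higher and 2 lower in BAZ1B KO and 4 higher and 1 lower in H2A.X KO, with medians of 0.46, 0.56 and 0.43. The shares of all genes called in these sets were 68.9%, 67.7% and 30.9%. KIT fell, at -2.12 (SE 0.16, adjusted p = 9.4e-08) in BAZ1B-experiment WT, and TAL1, the bHLH partner of GATA1, rose, at 1.45 (SE 0.062, adjusted p = 5.76e-10). In H2A.X KO cells the list had 3 higher and 3 lower at D0 and 3 higher and 2 lower at D6, and 2 higher and 2 lower and 3 higher and 0 lower with the correction, led by EP300, an acetyltransferase that binds both factors, at 2.34 (SE 0.53, adjusted p = 0.0112) and 2.94 (SE 0.55, adjusted p = 0.00453). In BAZ1B KO cells edgeR called 0 at D0 (2 at an unadjusted p below 0.05, 0 by DESeq2) and 2 higher and 0 lower at D6, KIT and HBS1L, the neighbour of MYB whose intergenic region holds MYB enhancers, at 0.15 (SE 0.039, adjusted p = 0.0229). MYB was 1.47-fold higher in the same libraries. Over all genes 35.1% and 43.1% were called in H2A.X KO at D0 and D6 (20.3% and 21.7% corrected), and 3.88% and 12.8% in BAZ1B KO.

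Paralogs of the regulators, 26 genes of which 16 were tested in the H2A.X experiment and 17 in the BAZ1B experiment, split evenly with maturation, with 9 higher and 8 lower in BAZ1B-experiment WT, 8 higher and 8 lower in BAZ1B KO and 4 higher and 3 lower in H2A.X KO, and medians of 0.25, 0.078 and 0.19. In these sets 68.9%, 67.7% and 30.9% of all genes were called. KLF15, a glucocorticoid-induced family member, fell in H2A.X-experiment WT, from 251 ± 36.8 to 56.8 ± 24.7 normalized counts (-2.12, SE 0.45, adjusted p = 0.0461). It was the single paralog called there, with 2.0% of all genes called. In H2A.X KO cells at D6, KLF13 was higher, from 3086 ± 188 to 11016 ± 5572 (1.84, SE 0.38, adjusted p = 0.00574), as was NFIC (1.31, SE 0.32, adjusted p = 0.00988, or 0.82, adjusted p = 0.0461 corrected), within counts of 2 higher and 3 lower at D0 and 5 higher and 0 lower at D6, or 0 higher and 1 lower and 4 higher and 0 lower corrected. In BAZ1B KO cells KLF13 was lower at D6 (-0.34, SE 0.073, adjusted p = 0.00823), as was KLF9 (-0.60, SE 0.088, adjusted p = 0.000698). The counts there were 0 higher and 1 lower at D0 and 1 higher and 2 lower at D6. Among all genes 3.88% and 12.8% were called in BAZ1B KO, and 35.1% and 43.1% in H2A.X KO (20.3% and 21.7% corrected).

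Across libraries the regulators ran parallel in the BAZ1B experiment and less so in the H2A.X experiment. These values had no length and GC correction, and the part of the trend on transcript length in them was not tested. Over the 12 BAZ1B-experiment libraries Pearson correlations of log2 CPM with KLF1 were 0.990 for BCL11A, 0.986 for NFIA, 0.994 for KLF3 and -0.943 for MYB, genes that share the step from D0 to D6. Over the 10 H2A.X-experiment libraries they were 0.591 for BCL11A, -0.0997 for NFIA, 0.397 for KLF3 and -0.959 for MYB, with the value for MYB again below -0.9. The genes closest to KLF1 in the H2A.X experiment, among 8610 with a mean log2 CPM of at least 3, were GUK1 (0.997), UBAC1 (0.997), CDC34 (0.996), BLVRB (0.993) and HAGH (0.992), and the same 5 had correlations of 0.977 to 0.997 with KLF1 in the BAZ1B experiment. The closest in the BAZ1B experiment, AC092490.1, CA1, ERMAP, NR1H2 and FKBP8, at 0.997 to 0.998, had 0.621 to 0.928 in the H2A.X experiment. For BCL11A the closest in the H2A.X experiment were FBXO3 (0.986), DLGAP5 (0.984), DNAJA4 (0.983), MKNK2 (0.980) and HEMGN (0.977), and in the BAZ1B experiment UCP2, KIAA1191, RANBP10, PGRMC2 and RCL1, at 0.996 to 0.997. SOX6 correlated with BCL11A at 0.934 and 0.949 in the H2A.X and BAZ1B experiments.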

How the data were processed

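Poly(A) RNA of HUDEP-2 cells was sequenced, and the authors deposited 1 table of raw counts per gene for each experiment. According to the submitters' processing notes the tools were STAR 2.7.0f, Subread 1.6.4 (featureCounts) and DESeq2 1.22.1 on hg38, and the study used GENCODE 31. The count of each library was used as deposited. The strand setting is not given in the sources used here, and the notes and the study describe the library kit differently.

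Each experiment was fitted alone with edgeR 4.0.16 in R 4.3.3 (quasi-likelihood test, TMM scaling, a minimum count of 10 and total of 15, 1 coefficient per genotype and day), with Benjamini-Hochberg adjustment over 13236 or 13879 genes and a call at an adjusted p below 0.05. Normalized counts are counts scaled to the TMM library size. All tests were two-sided. The length and GC correction used offsets from a spline of each library's deviations on canonical transcript length and GC content. The pipeline was tested on simulated counts.

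Alternatives were DESeq2 1.42.0, upper-quartile scaling, no globin genes, no filter, the compared libraries alone, the correction, a replicate block, each library left out and, for counts of calls alone, a stricter call rule (0.001 for the adjusted p and 1.5 for the size of the log2 change, limits that the study sets on its p-value and fold change). Ranks by canonical length were added after seeing the data. Libraries of the same number at D0 and D6 were taken as the same subclone, which the labels do not state. Their deviations from the group means correlated at 0.595 (WT) and 0.289 to 0.562 (KO) over 7337 genes in the H2A.X experiment and at -0.030 to 0.237 (WT) and 0.107 to 0.505 (KO) over 7419 in the BAZ1B experiment.

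The members and lists were chosen with earlier results of these data known. Named were all members, the KO targets, HBB, HBG1 and HBG2, up to 3 called genes per list and comparison with the largest change, and the 5 genes most correlated with KLF1 or BCL11A. Not every gene that this rule allows is reported here. The neighbours of LIN28B and IGF2BP1 were added after values were seen. Gene positions are from GENCODE 44 on GRCh38 and sequences from RefSeq. Of the 10 members, 9 had a promoter entry.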

Additional observations from a re-analysis of the deposited data

Results flagged for a closer look

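Over all genes the test of the difference itself called 177 (1.34%) in the H2A.X experiment and 343 (2.47%) in the BAZ1B experiment. The KLF1 targets held 4 of these calls in the H2A.X experiment, of which the 3 with the largest change are named. The 5 genes named in each experiment had a KO effect that was not the same at D0 and D6. Values are the log2 effect at D6 minus that at D0, by edgeR with adjusted p over all genes. In the H2A.X experiment they were KLF3 (1.46, adjusted p = 0.0285), the MYB paralog MYBL2 (0.86, adjusted p = 0.0488) and, among targets of KLF1, AQP1 (4.86, adjusted p = 0.00374), the cell cycle factor E2F2 (2.11, adjusted p = 0.0273) and the heme synthesis gene ALAD (1.22, adjusted p = 0.0488). In the BAZ1B experiment they were MYB (0.38, adjusted p = 0.0436), HBB (-0.84, adjusted p = 0.0181), SLC4A1 (2.11, adjusted p = 0.0053), PKLR (0.46, adjusted p = 0.00658) and the adhesion receptor CD44 (0.31, adjusted p = 0.041). Among the fits that left out 1 library, the call was lost in 9 of 10 for MYBL2, 8 for ALAD, 7 each for E2F2 and KLF3 and 0 for AQP1, and in 9 of 12 each for MYB and CD44, 2 for HBB and 0 for SLC4A1 and PKLR. Upper-quartile scaling also lost MYB and CD44. All groups held 2 or 3 libraries, so that no library was tested as standing apart from its group.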

How the results depend on the processing

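Of 40 called results of the 10 regulators, 25 kept direction and call in every alternative fit at an adjusted p below 0.05, and the stricter call rule left 2 of the 40, the rises of SOX6 in both genotypes of the BAZ1B experiment. Over their 760 alternative fits 694 kept both, 64 lost the call and 2 turned the sign. Of the 60 uncalled results, 22 were unchanged, with 47 fits that gained a call and 80 that turned the sign. The shallowest library, H2A.X WT replicate 2 at D6, and the pairs of WT libraries limit the H2A.X results. A lone WT library left by an omission is assumed to vary like the other groups.

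Regulators called in H2A.X KO against WT at D0 numbered 3, and 5 with the length and GC correction, 6 with the replicate block and correction together, 0 by the stricter call rule and 0 to 4 without 1 library (0 without WT replicate 2). At D6 they numbered 7, and 3 with the correction, 0 by the stricter rule and 0 to 7 without 1 library (0 without WT replicate 2). In H2A.X-experiment WT from D0 to D6 they numbered 0, and 1 without the filter, with the compared libraries alone, or with block and correction. In H2A.X KO they numbered 8, 0 by the stricter rule and 5 to 9 without 1 library (5 without KO replicate 1 at D0). For the difference of effects they numbered 1, 2 without the filter, 0 by the stricter rule and 0 to 4 without 1 library.

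In BAZ1B KO at D0 the count was 0, and 1 by DESeq2, 3 without the filter, 1 with the compared libraries alone and 0 to 1 without 1 library. At D6 it was 2, and 0 by the stricter rule. From D0 to D6 it was 9 in each genotype and 1 by the stricter rule. For the difference of effects it was 1, and 2 by DESeq2, without the filter, with the replicate block or with block and correction, 0 with upper-quartile scaling or the stricter rule, and 0 to 2 without 1 library.

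Signs that turned, on the log2 scale, were these. In H2A.X KO at D0 the replicate block gave ZBTB7A 0.043 and SOX6 0.23, the correction gave NFIA -0.57, and with the block it gave NFIA -0.42 and HBG2 0.077. At D6 the correction, without and with the block, gave KLF1 0.63 and 0.68, HBB 0.90 and 0.95, HBG1 0.20 and 0.37 and HBG2 1.14 and 0.84, and NFIA was -0.023 without and BCL11A -0.014 with the block. In H2A.X-experiment WT from D0 to D6, ZBTB7A was 0.027 and 0.026, and without the filter NFIA was -0.032, NFIX -0.0039 and KLF3 -0.027. KLF1 in BAZ1B KO at D0 was 0.0015 by DESeq2, 0.0072 with upper-quartile scaling, 0.0031 without globin genes and 0.0023 with the compared libraries alone. At D6 upper-quartile scaling gave BCL11A -0.018 and NFIA -0.017, and the correction gave BCL11A -0.014 with or without the block. In the BAZ1B difference of effects ZBTB7A was -0.016 with upper-quartile scaling and -0.019 with the correction, with or without the block, and without the filter BCL11A was 0.0035 and NFIA 0.0011.

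Values that passed 0 when 1 library was left out had these ranges. In H2A.X KO at D0 they were ZBTB7A -0.12 to 0.082 and SOX6 -0.48 to 0.13. In H2A.X KO at D6 they were MYB -0.088 to 0.80, HBB -0.55 to 0.31, HBG1 -2.83 to 0.38 and HBG2 -2.83 to 1.07. In H2A.X-experiment WT from D0 to D6 they were ZBTB7A -0.13 to 0.079, MYB -0.71 to 0.18, NFIA -0.073 to 0.087, NFIX -0.14 to 0.23, HIC2 -0.28 to 0.18 and KLF3 -0.063 to 0.089. In H2A.X KO from D0 to D6 they were LIN28B -3.47 to 0.75. In the H2A.X difference of effects they were LIN28B -2.76 to 1.46. In BAZ1B KO at D0 they were KLF1 -0.028 to 0.023 and BCL11A -0.025 to 0.049. In BAZ1B KO at D6 they were BCL11A -0.047 to 0.081, NFIA -0.041 to 0.041 and LIN28B -1.15 to 0.032. In BAZ1B KO from D0 to D6 they were LIN28B -1.27 to 0.28. In the BAZ1B difference of effects they were BCL11A -0.062 to 0.067, ZBTB7A -0.020 to 0.041, NFIA -0.059 to 0.024, HIC2 -0.14 to 0.051 and LIN28B -0.44 to 1.11.

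The cause of these moves was not tested. Upper-quartile scaling moved the median of all genes by -0.11 in H2A.X KO at D6. With the replicate block KLF1 in H2A.X KO at D6 was -0.49 (adjusted p = 0.0141), and 1 globin gene was called higher and 5 lower there, against 0 and 1 without it. KO and WT libraries of the same number shared only a number, and their deviations correlated at 0.118 to 0.237 in the H2A.X and -0.151 to 0.243 in the BAZ1B experiment.

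Over all genes, calls in the H2A.X experiment at D0 numbered 4651, and 2682 with the correction and 77 without WT replicate 2, and at D6 5701, 2868 and 152, or 3731 with the compared libraries alone. From D0 to D6 in its WT they numbered 265, and 1067 by DESeq2, 1271 without the filter and 1127 with the replicate block. In its difference of effects 177 became 680, 1007 and 552, and in that of the BAZ1B experiment 343 became 700, 987 and 718. BAZ1B KO at D0 had 539, and 1201 without the filter. The stricter call rule left 0 to 1627 calls per comparison.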
